A study of Homo sapiens with 6 samples.

Results

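Transcript levels of the translation initiation and elongation factors were examined in RBM12-depleted iNeurons with and without isoproterenol. The genes were taken by symbol, as those beginning with EIF or EEF, a digit and further capitals or digits, without the EEF1AKMT methyltransferases. The rule found 112 of the 19823 genes in the table, of which 64 are protein-coding and 48 are pseudogenes. No measured value entered the choice, and 2 of the members are not described here. EEF1AKNMT and EEF2KMT, which encode methyltransferases of elongation factors, match the symbols and were kept. EEF1G and EIF4EBP3 were not analysed here.

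iNeurons are glutamatergic neurons. They were made from the human pluripotent stem cell line WTc11 by switching on the transcription factor NGN2 with doxycycline. All samples came from 1 clonal line with the silencer dCas9-KRAB and an RBM12 knockdown, and this parental line has no added β2-adrenergic receptor. The 3 untreated samples received no drug. The other 3 received isoproterenol, an agonist of β-adrenergic receptors that raises cAMP, at a dose and for a time that the labels do not give. Neurons without the RBM12 knockdown were not analysed here, so the contrast concerns the response to the drug in depleted neurons. The guide vector in the study's methods carries an EF1alpha promoter, which derives from EEF1A1, and whether reads from that vector entered the EEF1A1 count was not tested.

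Initiation factors bring the initiator methionyl-tRNA and the small ribosomal subunit to the capped 5′ end of an mRNA and select its start codon. Elongation factors then deliver each further tRNA and move the ribosome along. Some of these factors, and nearly all ribosomal proteins, are encoded by mRNAs that open with a C and an unbroken run of pyrimidines, the terminal oligopyrimidine or TOP motif. Translation of TOP mRNAs depends on the kinase mTORC1 and on the cap-binding protein LARP1. Several factors are also switched by phosphorylation in neurons, such as eIF2 by its kinases and eEF2 by EEF2K.

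The samples held between 18116816 and 21488793 recovered reads, and values are read counts per gene scaled for depth, called normalized counts. All 10 neuronal markers examined, SLC17A6 and SLC17A7 of glutamatergic neurons among them, had a mean of at least 10 normalized counts. They summed to between 375088 and 423416 per sample, while the 3 pluripotency markers in the table summed to between 15.4 and 28.8 normalized counts per sample. The 3 inhibitory neuron markers also reached a mean of at least 10, and summed to 55.3 to 60.0 untreated and 66.9 to 79.0 with isoproterenol. The 2 of 5 astrocyte markers in the table summed to 160 to 175 untreated and 134 to 157 with isoproterenol. Neither range overlapped between the groups, and their part in the results was not tested. RBM12 lay between 195 and 279 normalized counts in all 6 samples. Within all 3 pairs, each made of the untreated and the isoproterenol sample with 1 replicate number, the 9 immediate early genes examined had higher counts after the drug. The labels give no date or batch. In bulk RNA, fewer cells of a type and less RNA per cell cannot be told apart.

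The letters at the annotated transcription start are shown for 10 members, because the question asked was whether TOP mRNAs move apart from the others. RefSeq promoters on GRCh38.p14 were matched by symbol for 50 of the 63 coding members described. The genes with no match are EEF1A2, EEF1AKNMT, EEF1D, EEF2KMT, EIF2AK1, EIF2S2, EIF3A, EIF3CL, EIF3E, EIF3G, EIF3H, EIF3L and EIF4EBP1. Each line reads 5′ to 3′ on the strand of the gene, with 15 bases before the start and 15 from it on. EEF1B2 and EIF4G2 have 2 promoters each, and a gene with several is shown by the one with the longest pyrimidine run. Capitals mark a C at the start followed directly by at least 4 further pyrimidines, up to the first purine or the end of the line. The first 4 are on the TOP list, the next 3 have the run but are not on it, and the last 3 lack it exactly at the start. Of these last 3, EIF3J and EIF4G2 hold such a run within 10 bases of the start.
EEF1A1 (chr6:73521018-73521047, minus strand): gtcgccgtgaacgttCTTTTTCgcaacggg
EEF1B2 (chr2:206159880-206159909, plus strand): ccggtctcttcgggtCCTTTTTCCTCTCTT
EEF2 (chr19:3985449-3985478, minus strand): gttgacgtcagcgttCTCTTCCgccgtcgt
EIF3F (chr11:7987322-7987351, plus strand): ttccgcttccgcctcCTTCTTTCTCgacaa
EIF4B (chr12:53006441-53006470, plus strand): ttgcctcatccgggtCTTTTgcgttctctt
EIF2S3 (chrX:24054941-24054970, plus strand): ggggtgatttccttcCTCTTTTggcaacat
EIF4A2 (chr3:186783562-186783591, plus strand): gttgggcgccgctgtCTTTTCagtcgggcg
EIF3J (chr15:44537132-44537161, plus strand): cacctccgccgtgctaactcctcgctagct
EIF2AK3 (chr2:88627450-88627479, minus strand): ggcgatgtccgagataggctgtcactcagg
EIF4G2 (chr11:10807982-10808011, minus strand): gaggttgtcggaagcacttccctaacttgc

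The run stood at the start of 13 of the 50 coding members (26%), counting a gene with several promoters when any of them had it, and of 1429 of all 35116 promoters (4.07%). In this paragraph the shares of all promoters are per promoter and those of members per gene, so they are not counted alike. Of the 11684 tested genes with a promoter, counted per gene as the members were, 841 had the run. All 4 TOP-list members with a promoter had it, namely EEF1A1, EEF1B2, EEF2 and EIF3F. The other 9 were EIF2A, EIF2D, EIF2S3, EIF2S3B, EIF3D, EIF3K, EIF3M, EIF4A2 and EIF4B. In EEF1B2 the run of 16 pyrimidines continued past the printed bases. With the run allowed anywhere within 10 bases of the start, 26 of 50 members (52.0%) and 28.2% of all promoters matched. Both searches read only the strand of the gene. The letters TGACGTCA, the cAMP response element and a palindrome, occurred in the 300-base promoter of 1 member, EEF2, beginning 13 bases before its start, and in 1.85% of all promoters.

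The coding members took between 1.23% and 1.37% of the reads of a sample. The mRNAs of EEF1A1, which delivers aminoacyl-tRNA, EIF4G2, a scaffold of alternative initiation, and EEF2, the translocation factor, made up 51.6% to 55.0% of that share. Levels between genes were compared as normalized counts per kb of the canonical transcript in untreated samples. EEF1A1 stood at 17719 ± 1318 per kb (SD, n = 3) and EIF4G2 at 14657 ± 240.2 per kb, followed by EEF2 at 9420.3 ± 829 per kb. EIF4A2, an RNA helicase of the cap complex, followed at 6567 ± 173 per kb, and EEF1A2, the neuronal and muscle form of eEF1A, at 5642 ± 153 per kb. These levels lay apart by more than their SDs. At the low end were EIF2S3B at 6.48 ± 2.23 per kb and EIF5AL1 at 10.5 ± 2.06 per kb, 2 genes close in sequence to EIF2S3 and EIF5A.

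**Figure D1:**
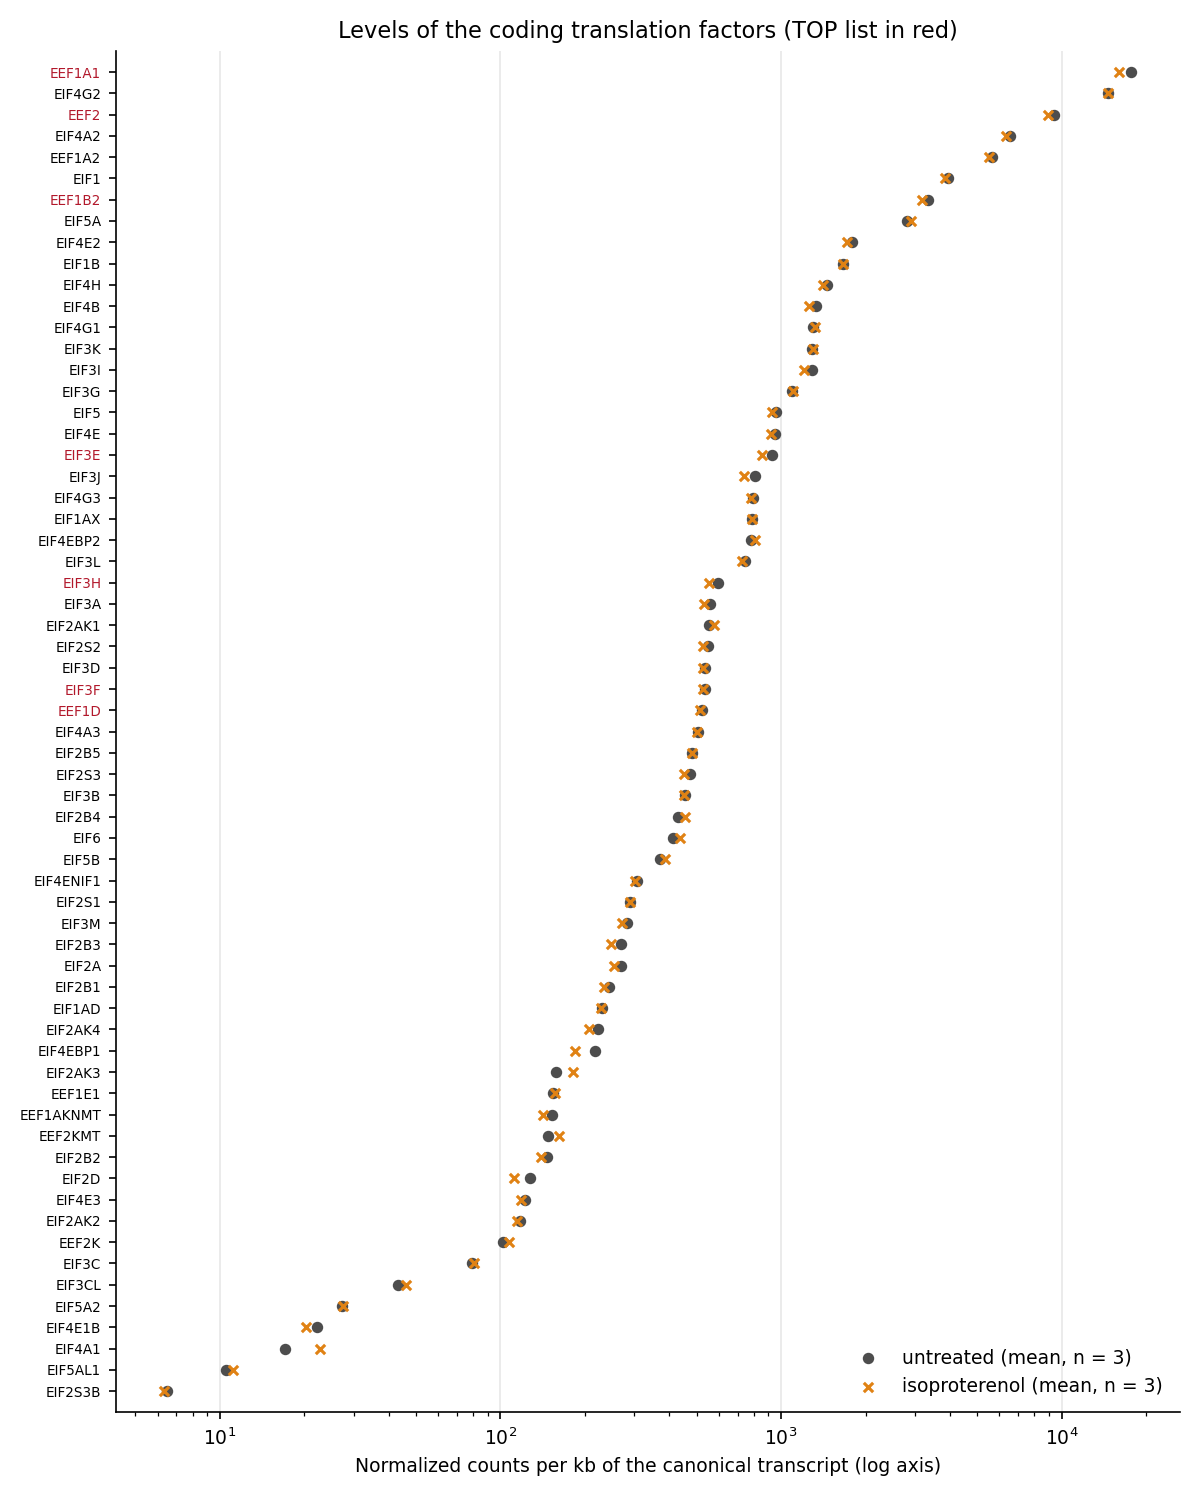
Level of each of the 63 coding members, as normalized counts per kb of the canonical transcript on a log axis, with the mean of the 3 untreated samples as points and of the 3 isoproterenol samples as crosses. Names of TOP-list members are in red, EEF1A1 is at the top with 17719 per kb in untreated samples, and the point and the cross of most genes nearly coincide.

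Changes were small. The log2 difference between isoproterenol and untreated samples was below 0.1 in size for 50 of the 63 coding members and above 0.2 for 3 of them. Without regard to the sample numbers, 0 of the 102 members tested passed a false discovery rate (FDR) of 0.05 in limma, against 0.0165% of all 18130 genes. Their smallest adjusted p was 0.495, and edgeR and DESeq2 also called 0, against 0.0165% and 0.116% of all genes. An unadjusted p under 0.05 was reached by 3 members, EIF2AK3, EIF3J and the pseudogene EEF1A1P12, where 7.68% of all genes reached it. The groups did not overlap for 7 members that were lower with isoproterenol and for 5 that were higher, against 6.19% and 6.73% of all genes. All 3 pairs were lower for 22 members and higher for 14, against 17.6% and 18.5% of all genes.

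The sample numbers carried much of the spread, and the same fit with the replicate number as a block called 6 members, against 4.88% of all genes. EEF1A1, EEF2, EIF3E, EIF3J and EIF4B fell, and EIF2AK3 rose, as 2.82% of all genes did. For the direction down, 5 of 102 members compare with 2.06% of all genes and with 5.47% of the 4640 genes at a mean of at least 1000 normalized counts. Of the coding members at that level, 5 of 41 fell (12.2%) and 0 rose, where 6.01% of the genes at that level rose. edgeR with the block called 7 members, the same 6 and EIF3H, against 5.39% of all genes. Of these 7, 6 were lower and 1 was higher, against 2.47% and 2.92% of all genes. EEF1A1 passed in all 7 fits with a block, EEF2 and EIF2AK3 in 6, EIF3J and EIF4B in 5, EIF3E in 3 and EIF3H in 2. The block fit called EEF1A1, EEF2 and EIF2AK3 without pair 1. Without pair 2 it called these and EIF3H, EIF3J and EIF4B. Without pair 3 it called EEF1A1 and the pseudogenes EEF1A1P5 and EEF1A1P6, and no other member. EIF3E was called in none of these 3 fits.

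**Figure D2:**
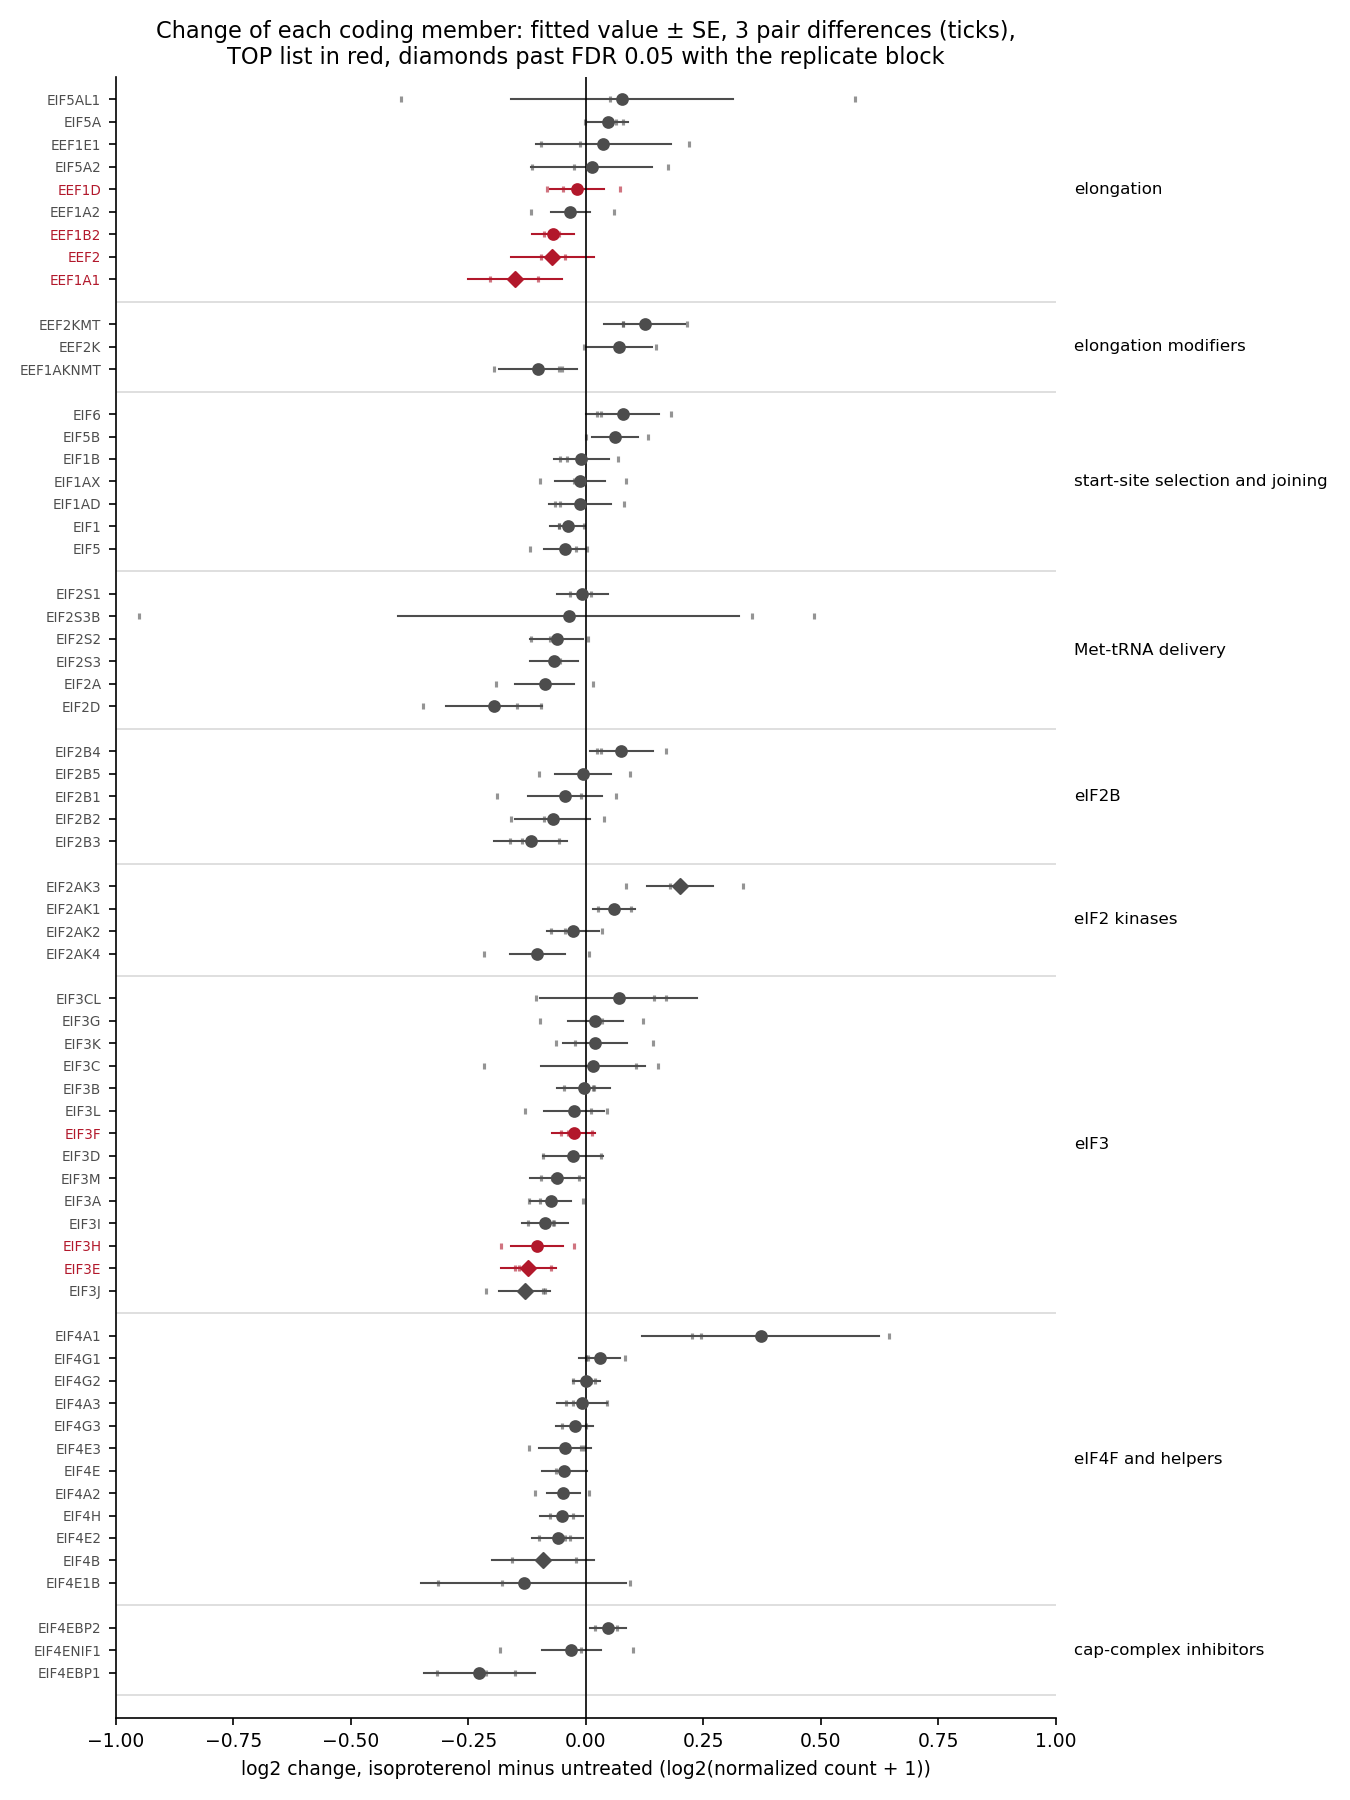
Log2 change of each of the 63 coding members, isoproterenol minus untreated, on the log2(normalized count + 1) scale, grouped by role, with the SE from limma without a block as bars and the 3 pair differences as ticks. TOP-list members are in red and all lie below 0, and the 6 diamonds are the members past FDR 0.05 with the replicate block.

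Among the elongation factors, EEF1A1 (ENSG00000156508, chr6:73489308-73525587 on GRCh38) had the lowest log2 difference. Its normalized counts were 60390.2, 67492 and 58801 without the drug and 54559, 62872 and 51090.1 with isoproterenol, in the order of replicates 1, 2 and 3 as in all lists of 3 values that follow. Replicate 2 was the highest of both groups, so the groups overlapped, while each isoproterenol sample was below the untreated sample of its number. EEF1A1 was lower by a log2 difference of -0.15 (SE 0.10), or -9.91%, and was not called without the block (adjusted p = 0.79). The differences were -0.15, -0.10 and -0.20 in pairs 1, 2 and 3, with an SD of 0.050. With the block the SE was 0.014 and the adjusted p was 8.17e-15, in a limma fit that takes its variance partly from other genes. Leaving out single samples moved the value between -0.23 and -0.085, and 3 of the 6 moved it by over 1.5 times. It was -0.23 when isoproterenol replicate 2 was left out, -0.085 when isoproterenol replicate 3 was, and -0.091 when untreated replicate 2 was.

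EEF2 (ENSG00000167658, chr19:3976056-3985463) had 28239, 32770.5 and 28238 normalized counts untreated and 27394, 31176 and 26417 with isoproterenol. Replicate 2 was again the highest in both groups, and the groups overlapped. The log2 difference was -0.071 (SE 0.089, adjusted p = 0.903), and with the block the SE was 0.016 and the adjusted p was 0.00178, with all 3 pairs lower. Without a block, leaving out untreated replicate 2 gave 0.00093 and leaving out untreated replicate 1 or 3 gave -0.11. Leaving out isoproterenol replicate 2 gave -0.14 and leaving out isoproterenol replicate 3 gave -0.022. Without pair 3, EEF2 was not called with the block.

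EEF1B2 and EEF1D are exchange factor subunits of eEF1B. EEF1B2 had 2734, 2681 and 2647 normalized counts untreated and 2571, 2572 and 2544 with isoproterenol, so its groups did not overlap. Its log2 difference was -0.069 (SE 0.045) and passed neither fit (adjusted p = 0.756, and 0.281 with the block). EEF1D had 1076, 1078 and 1115 against 1041, 1135 and 1053, overlapping groups with a log2 difference of -0.018 (SE 0.058).

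EEF1A2, which replaces EEF1A1 in mature neurons, had 10034, 9719 and 10259 normalized counts untreated and 9257, 10137 and 9968 with isoproterenol. The groups overlapped and the log2 difference was -0.032 (SE 0.041). The ratio of EEF1A1 to EEF1A2 counts, uncorrected for length, ran from 5.73 to 6.94 in untreated and from 5.13 to 6.20 in isoproterenol samples. EIF5A, which carries hypusine and relieves stalled ribosomes, stood at 3567 ± 37.1 and 3686 ± 75.1, and its paralog EIF5A2 at 151 ± 14.3 and 152 ± 11.7 normalized counts (SD, n = 3). Neither passed in either fit. EEF2K, the kinase that inhibits eEF2, had 804, 741 and 716 against 843, 739 and 794 normalized counts, which overlapped, with a log2 difference of 0.071 (SE 0.070). EEF2KMT stood at 355 ± 19.97 and 387 ± 20.4, and was higher in all 3 pairs with a log2 difference of 0.13 (SE 0.087, adjusted p = 0.775).

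**Figure D3:**
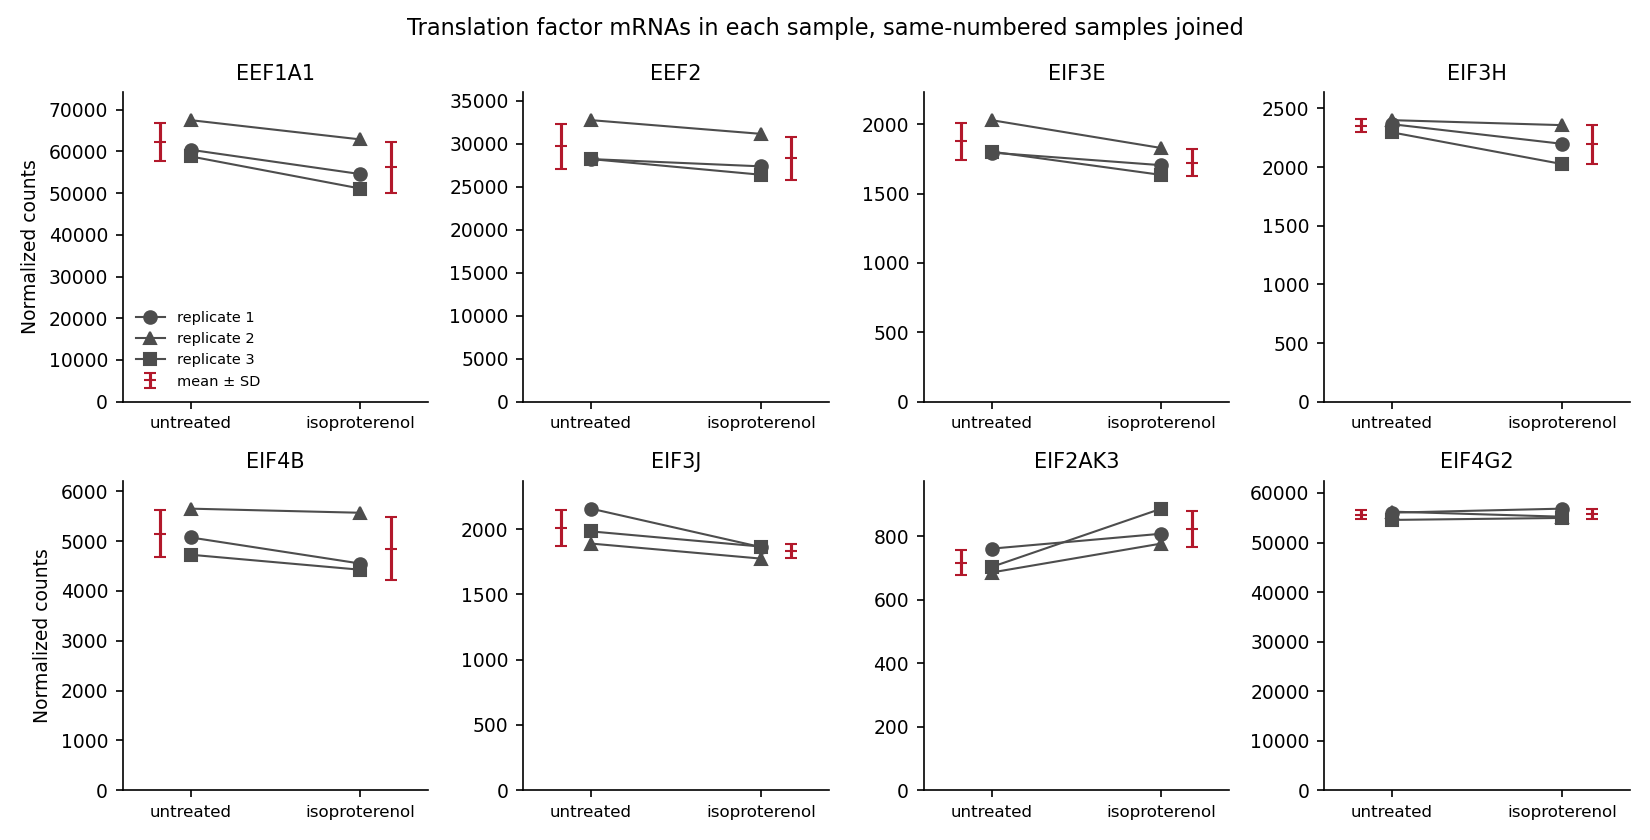
Normalized counts of 8 members in each sample, from 0, with the same-numbered samples joined by lines and the mean ± SD of each group in red. EEF1A1, EEF2, EIF3E, EIF3H, EIF4B and EIF3J were lower and EIF2AK3 was higher in all 3 pairs, while the lines of EIF4G2 are nearly flat.

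None of the 7 factors for start-site selection and subunit joining passed in limma with or without the block, in edgeR or in DESeq2, and none had an unadjusted p under 0.05. EIF1, which guards start codon choice, stood at 9209 ± 82.8 and 8967 ± 194 normalized counts in untreated and isoproterenol samples. Its paralog EIF1B stood at 1644 ± 72.2 and 1636 ± 117, and EIF1AX, which scans with it, at 3486 ± 72.1 and 3464 ± 286. Each had overlapping groups, and their log2 differences lay between -0.039 and -0.0090. EIF6, which keeps free large subunits from joining, stood at 440.2 ± 11.99 and 465 ± 22.1, with a log2 difference of 0.079 (SE 0.078, adjusted p = 0.855).

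All 6 members that deliver the initiator tRNA had a log2 difference below 0, as 49.5% of all genes did, with a median of -0.064. Only 2 of the 6 were lower in all 3 pairs, against 17.6% of all genes, and none passed with or without the block. EIF2S3B, at a mean of 16.9 normalized counts, had a log2 difference of -0.036 with an SE of 0.36. EIF2D, a factor of non-canonical initiation and recycling, had the lowest log2 difference of the 6, with 252, 273 and 245 normalized counts untreated and 235, 215 and 222 with isoproterenol. The groups did not overlap, which in either direction held for 12.9% of all genes, and the log2 difference was -0.20 (SE 0.10, adjusted p = 0.679). EIF2S3, the GTP-binding subunit of eIF2, had 1610.2, 1674 and 1632 against 1531, 1611 and 1552, and was lower by nearly the same amount in each pair, -0.073, -0.055 and -0.073. The 5 subunits of eIF2B, the exchange factor of eIF2, ranged from -0.12 for EIF2B3 to 0.076 for EIF2B4 without a call.

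Of the 4 eIF2 kinases, which slow initiation under stress, 2 had a log2 difference above 0 and 2 below. EIF2AK3 (ENSG00000172071, chr2:88556741-88691518), the endoplasmic reticulum kinase PERK, had 761, 686 and 703 normalized counts untreated and 808, 777 and 887 with isoproterenol. All isoproterenol values lay above all untreated values. The log2 difference was 0.20 (SE 0.070), or 14.9%, with pair differences of 0.086, 0.18 and 0.33, and an adjusted p of 0.495 without and 0.0188 with the block. Without pair 3 the block no longer called it. A gene on the opposite strand that shares 781 exonic bases with EIF2AK3 was not analysed here. EIF2AK1, the heme-regulated kinase, was also higher in every isoproterenol sample, with 2411, 2476 and 2458 against 2577, 2523 and 2561, but its log2 difference of 0.061 (SE 0.045) passed neither fit. EIF2AK2, the double-stranded RNA kinase PKR, stood at 1168 ± 30.6 and 1146 ± 15.4, and EIF2AK4, the amino acid sensor GCN2, at 1233 ± 36.4 and 1149 ± 62.9, neither of them called.

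The 14 members of eIF3, the scaffold of the small subunit, had a median log2 difference of -0.026, with 10 below 0 and 6 lower in all 3 pairs, where 17.6% of all genes were. EIF3E (ENSG00000104408) had 1796, 2030.1 and 1803 normalized counts untreated and 1705, 1829 and 1635 with isoproterenol. The groups overlapped and all pairs were lower, with a log2 difference of -0.12 (SE 0.059) and an adjusted p of 0.65 without and 0.0439 with the block. It was -0.064 when untreated replicate 2 was left out. EIF3H had 2365, 2399.7 and 2295 against 2198, 2357 and 2026, with a log2 difference of -0.10 (SE 0.055) and an adjusted p of 0.0717 with the limma block and 0.0465 with the edgeR block. The difference was -0.048 when isoproterenol replicate 3 was left out and -0.16 when isoproterenol replicate 2 was. EIF3F, the other TOP-list subunit, had 3793, 3699 and 3634 against 3829, 3603 and 3506, overlapping groups with a log2 difference of -0.025 (SE 0.045).

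EIF3J (ENSG00000104131, chr15:44537125-44563029), a loosely bound subunit that is not on the TOP list, had 2156, 1889 and 1982 normalized counts untreated and 1862, 1774 and 1866 with isoproterenol. The groups did not overlap, by a margin smaller than the SD of either group. Its log2 difference was -0.13 (SE 0.055), with an adjusted p of 0.596 without and 0.0243 with the block. It was -0.078 when untreated replicate 1 was left out. SPG11, on the opposite strand, shares 187 exonic bases with EIF3J and had a log2 difference of -0.038. EIF3A and EIF3I, core subunits, also had groups that did not overlap, lower with isoproterenol, and log2 differences of -0.074 and -0.087 without a call. EIF3C and EIF3CL are near-identical copies whose reads cannot be assigned with certainty, and their sum ranged from 343 to 371 untreated and from 302 to 415 with isoproterenol.

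In the cap-binding complex, EIF4B (ENSG00000063046, chr12:53006282-53042215), a helper of the helicase eIF4A, had 5075, 5653 and 4728 normalized counts untreated and 4550.1, 5570.2 and 4426 with isoproterenol. The groups overlapped widely, since replicate 2 was the highest in both. The log2 difference was -0.091 (SE 0.11), with pair differences of -0.16, -0.021 and -0.095, and an adjusted p of 0.892 without and 0.0297 with the block. All but 1 of the samples, when left out, moved the value by over 1.5 times. It was -0.049, -0.20 and -0.029 without isoproterenol replicates 1, 2 and 3, and -0.022 and -0.15 without untreated replicates 2 and 3. EIF4B is not on the TOP list used here, but its start has the run.

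EIF4G1, EIF4G2 and EIF4G3 encode the scaffolds. EIF4G2 had 56028, 56234 and 54563 normalized counts untreated and 56838, 55213 and 54962 with isoproterenol. Its log2 difference was 0.0016 (SE 0.028, adjusted p = 0.994), with a sign that changed with TMM scaling. EIF4G1 stood at 6999 ± 239 and 7148 ± 345 and EIF4G3 at 5085 ± 78.3 and 5002 ± 34.7. None of these 3 passed in either fit.

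Among the helicases, EIF4A2 had 12760.1, 12161 and 12234 against 11842, 12214 and 11884 normalized counts, overlapping groups with a log2 difference of -0.048 (SE 0.036). EIF4A3, of the exon junction complex, stood at 1275 ± 19.0 and 1268 ± 23.4. EIF4A1 was listed at 27.1 to 33.1 normalized counts untreated and 31.9 to 52.3 with isoproterenol. Per kb, untreated samples held 17.1 ± 1.69 of EIF4A1 and 104 ± 10.6 of its pseudogene EIF4A1P10. EIF4A1 shares 2187 same-strand exonic bases with another gene (ENSG00000264772) and fewer with a readthrough gene from SENP3, so its count is uncertain. Its log2 difference of 0.37 (SE 0.25) was not called. The cap-binding proteins EIF4E, EIF4E2 and EIF4E3 were each lower in all 3 pairs, with log2 differences of -0.045, -0.059 and -0.045 and no call. EIF4E1B, a germ cell form, stood at 44.2 ± 4.58 and 40.2 ± 3.73.

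EIF4EBP1 and EIF4EBP2, which bind eIF4E and block the cap complex until mTORC1 phosphorylates them, had differences of opposite sign. EIF4EBP1 had 182, 175 and 180.0 normalized counts untreated and 146, 151 and 162 with isoproterenol, and the groups did not overlap. Its log2 difference was -0.23 (SE 0.12), the lowest of the coding members, with an adjusted p of 0.677 and of 0.326 with the block. EIF4EBP2, the main form in brain, had 5814, 5814 and 5901 against 6089, 6041 and 5985, higher in every isoproterenol sample by 0.047 (SE 0.038) without a call. Per kb, untreated samples held 780.0 ± 6.65 of EIF4EBP2 and 216 ± 4.11 of EIF4EBP1.

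Of the 47 pseudogenes described, 39 passed the filter on low counts and 0 were called in limma, with or without the block, in edgeR or in DESeq2, with 1 at an unadjusted p under 0.05. Their median within-group SD was 0.31 on the log2 scale, against 0.066 for the coding members. The 16 processed copies of EEF1A1 summed to 6.96% to 7.76% of the EEF1A1 count in untreated samples and to 6.79% to 9.53% with isoproterenol, and reads may be split between them and EEF1A1. EEF1A1P12 had 119, 155 and 118 normalized counts untreated and 148, 156 and 179.5 with isoproterenol, a log2 difference of 0.31 (SE 0.14, adjusted p = 0.633). EEF1A1P19 ranged from 186 to 269 untreated and from 221 to 249 with isoproterenol. The sum of EEF1A1 and its copies was lower by -0.14, -0.12 and -0.17 in pairs 1, 2 and 3.

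The TOP list held EEF1A1, EEF1B2, EEF1D, EEF2, EIF3E, EIF3F and EIF3H. All 7 had a log2 difference below 0, where 49.5% of all genes and 52.0% of those at a mean of at least 1000 did, with a median of -0.071 and a range from -0.15 to -0.018. Of the 56 other coding members, 37 lay below 0 with a median of -0.025, and the median over all genes tested was 0.0015. In 5 of the 7 TOP-list members all 3 pairs were lower, against 15 of 56 other coding members, 17.6% of all genes and 23.8% of those at a mean of at least 1000. With the block, 3 of the 7 and 2 of the 56 fell, against 2.06% of all genes and 5.47% of those at a mean of at least 1000. All 7 lie at that level, where 34 other coding members had a median of -0.031, with 27 below 0, 11 lower in all 3 pairs and 2 that fell.

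The median of the TOP list minus that of all other members was -0.047, and it was -0.045 over coding members alone. The difference to all other members was -0.075, -0.024 and -0.13 in pairs 1, 2 and 3, below 0 in each, with an SD of 0.052. Much of that spread came from the 39 pseudogenes tested, with medians of 0.13, -0.26 and 0.23 in these pairs. The medians were -0.075, -0.060 and -0.096 for the TOP list and -0.012, -0.024 and -0.027 for the other coding members. Leaving out single samples gave differences to all other members from -0.12 without isoproterenol replicate 2 to -0.019 when replicate 3 of that group was left out. Over members with a mean of at least 1000 it was -0.035.

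Averaged over the list, each gene centred on its mean of 6 samples, the TOP-list members stood at 0.022, 0.095 and 0.0030 without the drug and at -0.049, 0.042 and -0.11 with isoproterenol. The isoproterenol value was lower in each pair, yet replicate 2 with isoproterenol lay above untreated replicates 1 and 3, so the groups overlapped. The other coding members stood at 0.0056, 0.014 and 0.0019 untreated and at -0.0055, -0.033 and 0.016 with isoproterenol, and in pair 3 they were higher. The median SD of a TOP-list member was 0.081 within groups and 0.041 over its 3 pair differences, both on the log2 scale. For the other coding members it was 0.065 within groups and 0.074 over pair differences. A pair difference carries the spread of both its samples, so an SD over pairs cannot be set directly against an SD within groups.

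**Figure D4:**
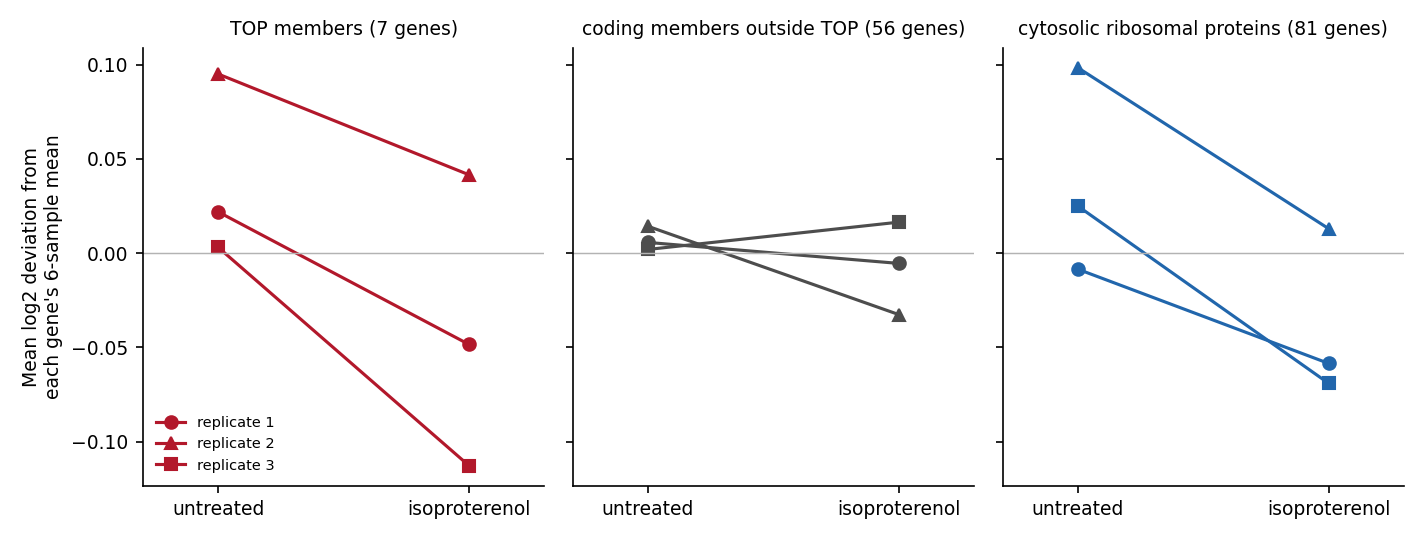
Mean log2 deviation of each gene list from its mean over 6 samples, for untreated and isoproterenol samples, with same-numbered samples joined. The lines of the 7 TOP-list members and of the 81 ribosomal proteins all descend and replicate 2 is the highest in both, while the 56 other coding members stay between -0.033 and 0.016 with lines in both directions.

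Cytosolic ribosomal proteins, whose mRNAs are the main TOP class, were followed as a reference. The symbol rule for them also takes paralogs such as RPL22L1, RPL26L1, RPL7L1 and RPS27L (log2 differences of 0.26, 0.0046, 0.035 and -0.13). Of 81 tested, 74 had a log2 difference below 0, with a median of -0.082, and 57 were lower in all 3 pairs (70.4%), against 17.6% of all genes and 23.8% of those at a mean of at least 1000. With the block 31 fell (38.3%) and 0 rose, against 2.06% and 5.47% that fell, and without it 0 passed in limma, edgeR or DESeq2, with 23 at an unadjusted p under 0.05 in limma. Their mean centred level was -0.0085, 0.098 and 0.025 without the drug and -0.059, 0.013 and -0.069 with isoproterenol, with replicate 2 the highest in both groups. Of 4 further TOP mRNAs examined, RACK1, TPT1, NAP1L1 and HNRNPA1, all were lower in each pair and HNRNPA1, a splicing factor, fell with the block (log2 difference -0.11, SE 0.042, limma adjusted p = 0.000188, against 0.558 without it).

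Sorting by the letters at the start in place of the list, a grouping made after the values were seen, the members were counted again. Of the 13 coding members with the run, 12 had a log2 difference below 0, with a median of -0.067, and 7 were lower in all 3 pairs. Of the 37 without it, 23 lay below 0, with a median of -0.0090, and 8 were lower in all 3 pairs. Of the 11684 tested genes with a promoter, 50.1% lay below 0 and 18.9% were lower in all 3 pairs. At a mean of at least 1000 normalized counts, 23.8% of all genes were lower in all 3 pairs. The 13 include the 4 TOP-list members with a promoter, which were already counted above. The 9 with the run that are not on the TOP list had a median of -0.061, with 8 below 0 and EIF3K as the exception.

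The same letters were then looked up across the table. Among genes that were neither members nor ribosomal proteins, 782 had the run and 49.5% of them lay below 0, with a median of 0.00052, and 10787 lacked it, of which 49.8% lay below 0, with a median of 0.00081. The block called 2.43% of the first and 2.26% of the second lower. At a mean of at least 1000 normalized counts, 24.7% of 287 genes with the run and 22.7% of 3375 without it were lower in all 3 pairs. Ribosomal proteins had medians of -0.099 with the run (46 genes) and -0.051 without it (19 genes). The paralog RPL22L1 is among the former, and RPL26L1, RPL7L1 and RPS27L are among the latter. Genes without the run are those with no RefSeq start exactly on it. They can hold a run nearby, so they are not a group of mRNAs shown to lack the TOP motif.

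**Figure D5:**
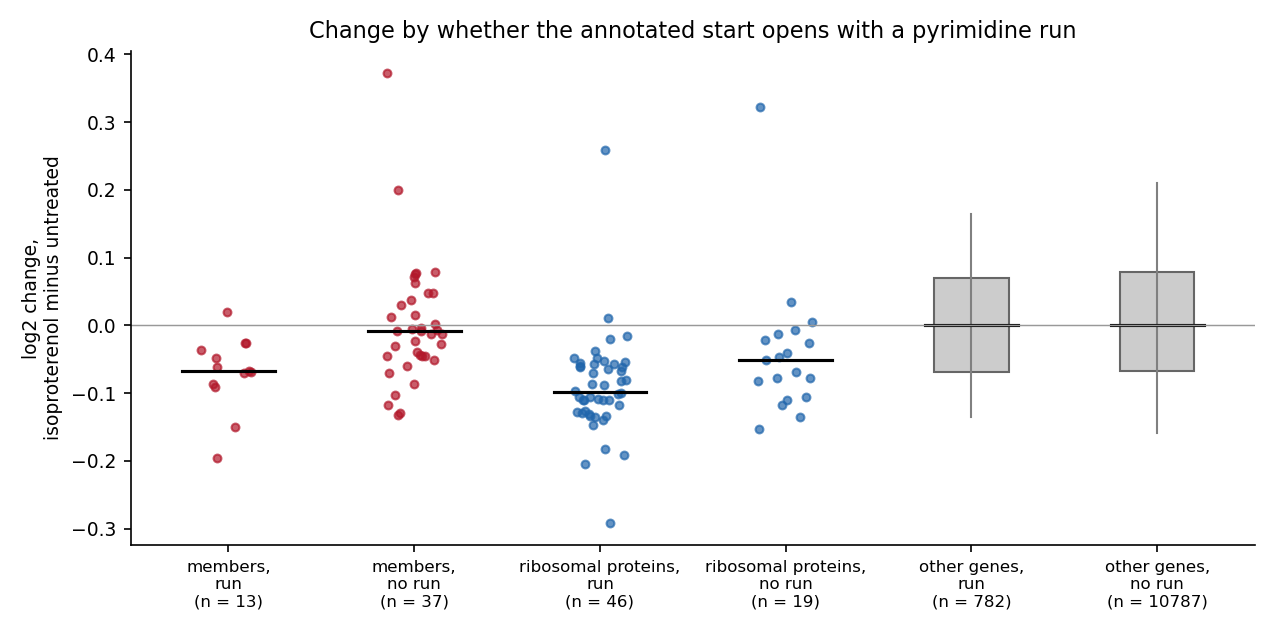
Log2 change, isoproterenol minus untreated, of genes with and without a C and at least 4 further pyrimidines at the annotated start. Points are coding members (red) and ribosomal proteins (blue), boxes span the middle 2 quartiles of the other genes with lines out to the outer deciles, and black bars are medians, -0.067 for the 13 members with the run and close to 0 for the 782 other genes with it.

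Other genes of the pathway were counted from a list of 49, of which 47 were tested. Without the block 0 passed in limma, edgeR or DESeq2, with 4 at an unadjusted p under 0.05, and with it 4 fell (8.51%) and 0 rose in limma, against 2.06% of all genes and 5.47% of those at a mean of at least 1000 that fell. edgeR with the block called the direction down for 4 and up for 1, DPH3, which takes part in diphthamide synthesis (adjusted p = 0.0377, and 0.051 in limma with the block). Besides HNRNPA1 these were PABPC1, RHEB and PDCD4. PABPC1, the poly(A)-binding protein, had 6930.4, 7529 and 6834 normalized counts untreated and 6535, 7118 and 6507 with isoproterenol, overlapping groups with a log2 difference of -0.079 (SE 0.046, adjusted p = 0.72, and 0.0366 with the block). RHEB, the GTPase that activates mTORC1, had 2507, 2303 and 2523 against 2191, 2274 and 2321, overlapping groups with a log2 difference of -0.11 (SE 0.050, adjusted p = 0.628, and 0.0467 with the block).

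PDCD4, an inhibitor of eIF4A, had 812, 828 and 622 normalized counts untreated and 525, 782 and 520.1 with isoproterenol. The groups overlapped through isoproterenol replicate 2, and pairs 1 to 3 differed by -0.63, -0.083 and -0.26. Its log2 difference was -0.32 (SE 0.21), with an adjusted p of 0.783 without and 0.0013 with the block. LARP1, which holds TOP mRNAs when mTORC1 is off, had a log2 difference of 0.020 (SE 0.037), and MTOR one of 0.041 (SE 0.051), neither of them called. The 8 termination, recycling and rescue factors lay between -0.054 and 0.087 with no call.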

How the data were processed

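Poly(A) RNA-seq was carried out on RBM12-depleted iNeurons, 3 untreated and 3 treated with isoproterenol, grouped by the labels. Per the methods and labels, the authors aligned reads to GRCh38 with STAR, counted them per gene with featureCounts (Subread, in the submitters' processing notes) and scaled counts with DESeq2. Tool versions and the strand setting are not given in the sources used here. Each value the authors deposited is a depth-scaled signal, the read count of a gene divided by the size factor of the sample. Every value was a whole multiple of 1 step per sample, which gave back whole reads for 100% of values (within 0.05 of a read).

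Genes with more than 5 reads in at least 4 samples were tested (18130 of 19823) with limma 3.58.1 (trend, robust, two-sided, R 4.3.3) on log2(normalized count + 1), which understates changes of low genes. The Benjamini-Hochberg adjustment ran over the 18130 genes, with a threshold of FDR 0.05. edgeR 4.0.16 and DESeq2 1.42.0 were run on the recovered reads as alternatives and called 3 and 21 of all genes, and edgeR with a block 977. The steps were tested on simulated data that held no replicate effect and larger changes than those of the called members. The calls made with the block were therefore not tested by it. As a pairing check, each sample was centred on its group over 11587 genes, and the correlation between samples with equal replicate numbers was 0.27, 0.49 and 0.39. All were over 0.1, so the label numbers were taken to pair the samples, and a fit with the number as a block is given where it changes a call. Nothing says that replicates were separate differentiations, so p-values concern the spread between these samples. In limma the variance of each gene is also drawn toward a trend over all genes. An SE or p-value can therefore be smaller than the 3 pairs of that gene alone would give.

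Positions, overlaps and lengths came from GENCODE release 44 by gene identifier. Start sequences came from a RefSeq promoter table. Exons of 31 coding members overlap an antisense gene and those of 12 overlap another gene on their own strand.

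Members, lists and the TOP list were chosen with earlier results of these data known, so no list was given a p-value. Named members are the TOP list, members past the threshold with or without the block, the 5 largest rises and falls at a mean of at least 100, the paralog sets and the kinases. Members named outside these (EIF2S3, EIF2S3B, EIF2B3, EIF2B4, EIF3A, EIF3C, EIF3CL, EIF3I, EIF3K, EIF4A1P10 and EIF5AL1) were chosen after their values were seen. Other alternatives were TMM and total-count scaling, pseudocounts of 0.5 and 5, other filters and leaving out each sample. Block fits with other scalings or without a pair, and the grouping by letters exactly at the start, were added after the data were seen.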

Additional observations from a re-analysis of the deposited data

How the results depend on the processing

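Without a block, the count of members past FDR 0.05 was 0 under every alternative run. With the replicate block it was 6 of 102 (885 of all genes, against 3), with TMM scaling as well 6 (941), with total-count scaling 5 (898) and in edgeR 7 (977). Leaving out pairs 1, 2 and 3 under the block gave 3, 6 and 3 members and 531, 665 and 456 genes. The pseudogenes EEF1A1P5 and EEF1A1P6, called only without pair 3, had log2 differences of -0.25 and -0.22 there and up to 0.016 and 0.058 in other alternatives. DESeq2 called 21 genes, none of them a member. Leaving out each sample without a block gave 2 to 67 genes, the highest without isoproterenol replicate 2. The difference between the TOP list and the other members was below 0 in every alternative, from -0.123 without isoproterenol replicate 2 to -0.019 without isoproterenol replicate 3. The causes were not tested. The median over all genes moved by less than 0.01 between scalings.

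The following covers the 37 members named by rule. EIF4G2 turned to -0.00078 with TMM scaling with or without the block, to -0.00079 in edgeR, to -0.00077 in edgeR with the block and to -0.00056 in DESeq2. Leaving out each sample without a block gave ranges of -0.013 to 0.011 for EIF4G2, -0.057 to 0.0053 for EEF1D, -0.14 to 0.00093 for EEF2, -0.061 to 0.0023 for EIF3F, -0.035 to 0.23 for EEF1A1P19, -0.058 to 0.0074 for EEF1A2, -0.022 to 0.0048 for EIF4A3, -0.057 to 0.080 for EIF5A2, -0.053 to 0.049 for EIF1B and -0.078 to 0.036 for EIF1AX. Under the block without pair 1, signs changed for EIF4G2 (-0.0080), EEF1A2 (0.0097), EIF4A3 (0.0017), EIF5A2 (-0.069) and EIF1B (0.0062). Under the block without pair 3, they changed for EIF4G2 (-0.0029), EEF1D (0.013), EIF4A3 (0.0093), EIF1B (0.014) and EIF1AX (0.031).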
